A study of Mus musculus with 12 samples.

Results

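The 10 genes described here encode chemokine ligands: Ccl1, Ccl3, Ccl4, Ccl5, Ccl20, Ccl22, Xcl1, Cxcl10, Cxcl2 and Cxcl3. They were found by gene name, and all 10 were among the 41457 genes of the tables. Their RNA was measured by poly(A) RNA-Seq of regulatory T cells (Treg) sorted from mouse spleen as RFP+CD4+ cells and kept overnight in 5 U/mL IL-2. In parallel cultures, 1 µg/mL anti-CD3 and 2 µg/mL anti-CD28 were added, and these cells are called stimulated. There were 3 libraries, labelled as biological replicates, for each combination of genotype and culture, 12 in all. CD18Foxp3 mice carried floxed alleles of Itgb2, the gene of the β2-integrin chain CD18, and lost an exon of it in cells expressing Cre from the Foxp3 locus. CD18wt littermates carried the same Foxp3-Cre with wild-type Itgb2, and the RFP reporter that Cre switches on was carried by both genotypes. RFP therefore marks cells that had Cre at any time, including cells that may have lost Foxp3 since. The ages of these mice were not given in the sources used here.

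Libraries held between 10665174 and 19005482 exon reads, and the shallowest was CD18wt unstimulated replicate 3. Itgb2 was at 387 to 465 TPM (the level per length of transcript that the authors deposited, scaled to a fixed sum per library) in unstimulated CD18wt libraries and at 229 to 257 TPM in unstimulated CD18Foxp3 libraries. In stimulated libraries it was at 329 to 331 TPM and at 131 to 202 TPM, so that no CD18Foxp3 library reached a CD18wt library of the same culture. Reads were counted over the whole gene, which the deletion leaves largely in place. All 7 Treg markers examined, Foxp3 among them, averaged over 1 TPM in every group, with a summed level of 1624 to 4459 TPM. Of 10 myeloid markers, 2 averaged over 1 TPM in any one group, and the list summed to 6.18 to 20.5 TPM. The 6 B cell markers summed to 9.48 to 39.2 TPM, and 3 of them averaged over 1 TPM in each unstimulated group and 1, Cd79b, in each stimulated group. The 10 markers of cytotoxic lymphocytes summed to 87.2 to 164 TPM, mostly from Nkg7. Cd8b1, Eomes and Prf1 also averaged over 1 TPM in every group, and Klrb1c did so in each unstimulated group. Gzma did so in unstimulated CD18Foxp3 Treg only. Ncr1, a marker of natural killer cells, had no exon read in any library. It had 3 and 4 intron reads in stimulated CD18wt replicates 1 and 2. Whether cytotoxic lymphocytes were among the sorted cells was not tested.

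Chemokines are small secreted proteins that bind to G protein-coupled receptors on leukocytes and direct their migration. T cells are known to make Ccl3, Ccl4 and Xcl1 on ligation of the T cell receptor and to store Ccl5 after antigen experience, and Treg have been described to attract other cells by such ligands. Ccl1 binds Ccr8, Ccl22 binds Ccr4, Ccl20 binds Ccr6, Xcl1 binds Xcr1 on cross-presenting dendritic cells, Cxcl10 binds Cxcr3, and Cxcl2 and Cxcl3 attract neutrophils by way of Cxcr2.

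The promoters of 5 ligands that behaved differently in these cultures are shown for comparison, each as the 170 bases from 220 to 51 bases before the RefSeq start of the gene (GRCm38.p6), written 5′ to 3′ on the gene's strand. Capitals mark matches to the NF-kB consensus on either strand. In Cxcl10 the capitals mark, in order, the core of an interferon-stimulated response element (ISRE), an NF-kB match, another NF-kB match and an AP-1 match. Ccl3 has no match to these 3 motifs and is shown without capitals. Cxcl2 lies at chr5:90903679-90903848 (plus strand), Cxcl3 at chr5:90785881-90786050 (plus strand), Ccl20 at chr1:83116546-83116715 (plus strand), Cxcl10 at chr5:92348940-92349109 (minus strand) and Ccl3 at chr11:83649429-83649598 (minus strand).
Cxcl2: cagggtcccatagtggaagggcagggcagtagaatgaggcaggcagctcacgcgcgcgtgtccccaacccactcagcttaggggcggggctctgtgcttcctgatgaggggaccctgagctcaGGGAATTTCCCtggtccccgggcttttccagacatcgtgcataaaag
Cxcl3: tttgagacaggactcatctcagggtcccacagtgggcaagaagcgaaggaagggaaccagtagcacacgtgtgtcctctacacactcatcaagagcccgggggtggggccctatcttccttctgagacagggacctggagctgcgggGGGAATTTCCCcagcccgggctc
Ccl20: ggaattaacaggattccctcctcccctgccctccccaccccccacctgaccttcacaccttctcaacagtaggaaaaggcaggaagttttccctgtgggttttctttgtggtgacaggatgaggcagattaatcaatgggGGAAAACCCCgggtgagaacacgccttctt
Cxcl10: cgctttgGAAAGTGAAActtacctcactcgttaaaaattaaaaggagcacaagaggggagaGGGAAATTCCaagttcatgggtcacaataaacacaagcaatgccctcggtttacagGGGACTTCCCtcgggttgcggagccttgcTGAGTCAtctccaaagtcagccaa
Ccl3: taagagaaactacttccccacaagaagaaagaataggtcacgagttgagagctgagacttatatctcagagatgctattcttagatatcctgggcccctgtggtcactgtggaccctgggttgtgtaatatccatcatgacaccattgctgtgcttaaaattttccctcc

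Of the 10 ligands, 8 had a RefSeq window of 300 bases around the start, and Ccl4 and Ccl5 are named only. The NF-kB consensus matched in 4 of these 8 windows, those of Ccl20, Cxcl10, Cxcl2 and Cxcl3, against 4.51% of 32851 promoters. The AP-1 motif TGANTCA matched in Cxcl10 alone, against 7.81% of promoters, and the ISRE core also in Cxcl10 alone, against 3.44%. The short NFAT motif GGAAA, which lies inside some NF-kB matches, was in 7 of 8 windows, all but that of Ccl22, and in 61.3% of promoters. All motifs were searched on both strands. A match is a description of the letters and was not tested as a site.

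**Figure D1:**
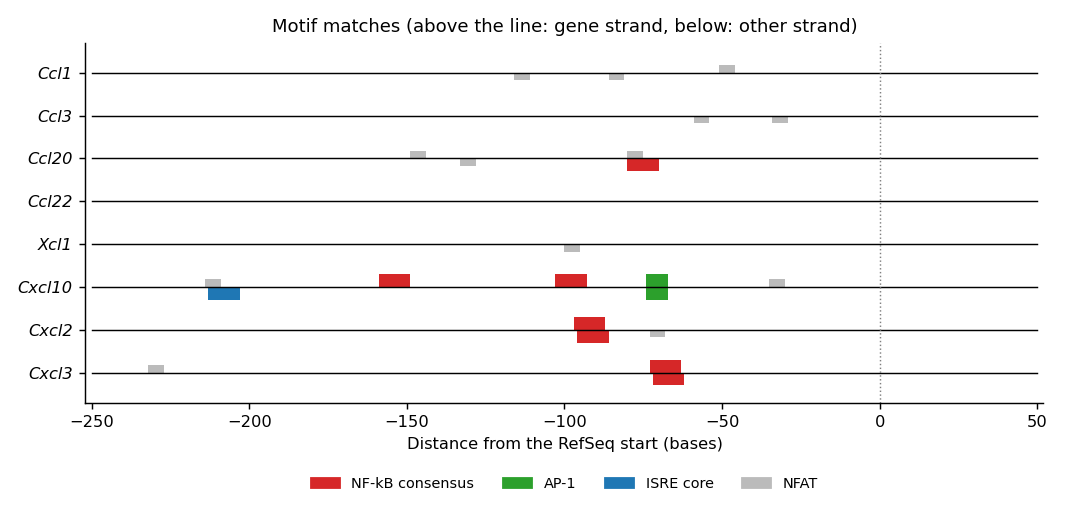
Motif matches in the promoters of 8 ligands, by distance from the RefSeq start in bases. Boxes above a line lie on the gene's strand and boxes below it on the other strand. NF-kB boxes hide the NFAT matches that lie inside them on the same strand. The NF-kB consensus is seen in Ccl20, Cxcl10, Cxcl2 and Cxcl3, and Ccl22 carries no box.

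In unstimulated Treg, Ccl5 led the ligands in both genotypes, followed by Cxcl10 and Xcl1. Group means were 43.5 ± 13.4 TPM (SD, n = 3) for Ccl5, 14.3 ± 5.13 TPM for Cxcl10 and 5.11 ± 3.66 TPM for Xcl1 in CD18wt Treg. In CD18Foxp3 Treg they were 78.0 ± 19.5, 17.3 ± 0.247 and 12.03 ± 0.506 TPM, in the same order. In each genotype the libraries of Ccl5 did not overlap those of Cxcl10, and those of Cxcl10 did not overlap those of Xcl1. The other 7 ligands averaged under 2 TPM in both genotypes, and neighbours among them in the order of levels overlapped.

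After stimulation the order was a different one, with Ccl4 and Ccl3 leading in both genotypes. The 10 ligands together went from 67.1 ± 17.1 TPM (SD, n = 3) to 746 ± 311 TPM in CD18wt Treg and from 111 ± 19.9 TPM to 505 ± 89.9 TPM in CD18Foxp3 Treg, sums that were not tested. Ccl3 and Ccl4 made up 3.16% ± 0.615 (SD, n = 3) of this sum before and 83.4% ± 6.77 after stimulation in CD18wt Treg. In CD18Foxp3 Treg their share was 2.10% ± 2.00 before and 87.4% ± 2.75 after. The share of Ccl5 went from 64.5% to 0.641% in CD18wt Treg and from 69.7% to 1.38% in CD18Foxp3 Treg. The libraries of Ccl4 and Ccl3 overlapped each other in both genotypes and lay above those of Xcl1, the next in order. TPM divide reads by all annotated exon bases. Among the ligands these exceed the principal transcript most in Ccl1, with 2369 exon bases for a principal transcript of 514. Divided by the principal transcript, stimulated Ccl1 would be at 61.4 in CD18wt and 48.6 in CD18Foxp3 Treg, above the 59.6 and 24.2 TPM of Xcl1. This takes all reads to come from that transcript and leaves the other genes of the library as they were. The order below Ccl4 and Ccl3 thus depends on the length used.

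**Figure D2:**
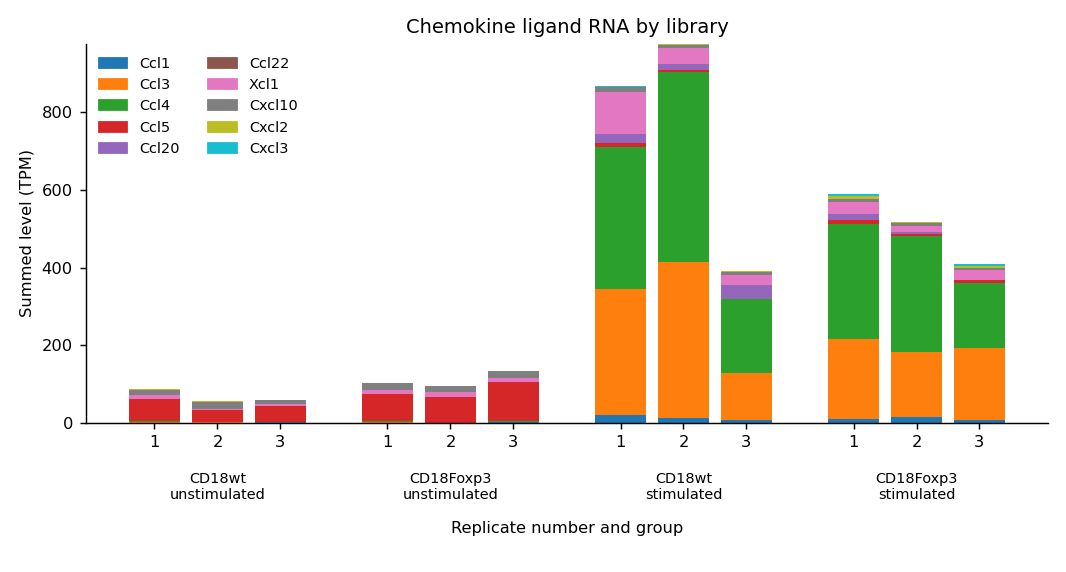
Summed TPM of the 10 ligands in each of the 12 libraries, stacked by gene, with replicate numbers and groups along the horizontal axis. Unstimulated libraries sum to 56.4 to 134 TPM, mostly Ccl5 (red), and stimulated libraries to 393 to 977 TPM, mostly Ccl3 (orange) and Ccl4 (green).

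The question put by stimulation was how the ligand genes respond to ligation of the T cell receptor and CD28 in each genotype. A gene passed where it changed 1.5-fold or more with an adjusted p no higher than 0.01 in the edgeR quasi-likelihood test of exon reads (Benjamini-Hochberg adjustment over all genes tested). Errors of log2 fold changes are standard errors (SE). In CD18wt Treg 8 of the 10 ligands had enough reads to be tested, of which 5 rose, Ccl1, Ccl3, Ccl4, Ccl20 and Xcl1, and 2 fell, Ccl5 and Cxcl10. Among all 11930 genes tested, 18.7% rose and 14.9% fell. Libraries of the 2 cultures did not overlap in 6 of the 8 ligands, against 62% of all genes. In CD18Foxp3 Treg 7 ligands were tested, of which 4 rose, Ccl1, Ccl3, Ccl4 and Cxcl2, and 2 fell, Ccl5 and Cxcl10. Among all 12019 genes tested there, 20.9% rose and 17.6% fell, and libraries did not overlap in 7 of 7 ligands, against 67.1% of all genes. Ccl1, Ccl3, Ccl4, Ccl20 and, in CD18Foxp3 Treg, Cxcl2 reached the minimum of reads by way of the stimulated libraries, so that they could enter the test only if they rose. Of all calls 55.7% were higher in stimulated CD18wt and 54.3% in stimulated CD18Foxp3 Treg, and 80.7% and 75.9% in limma on log2(TPM + 1), where the median log2 fold change over all genes was 0.36 and 0.31, against 0.02 and 0.01 in the edgeR test. The 2 contrasts share no library.

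**Figure D3:**
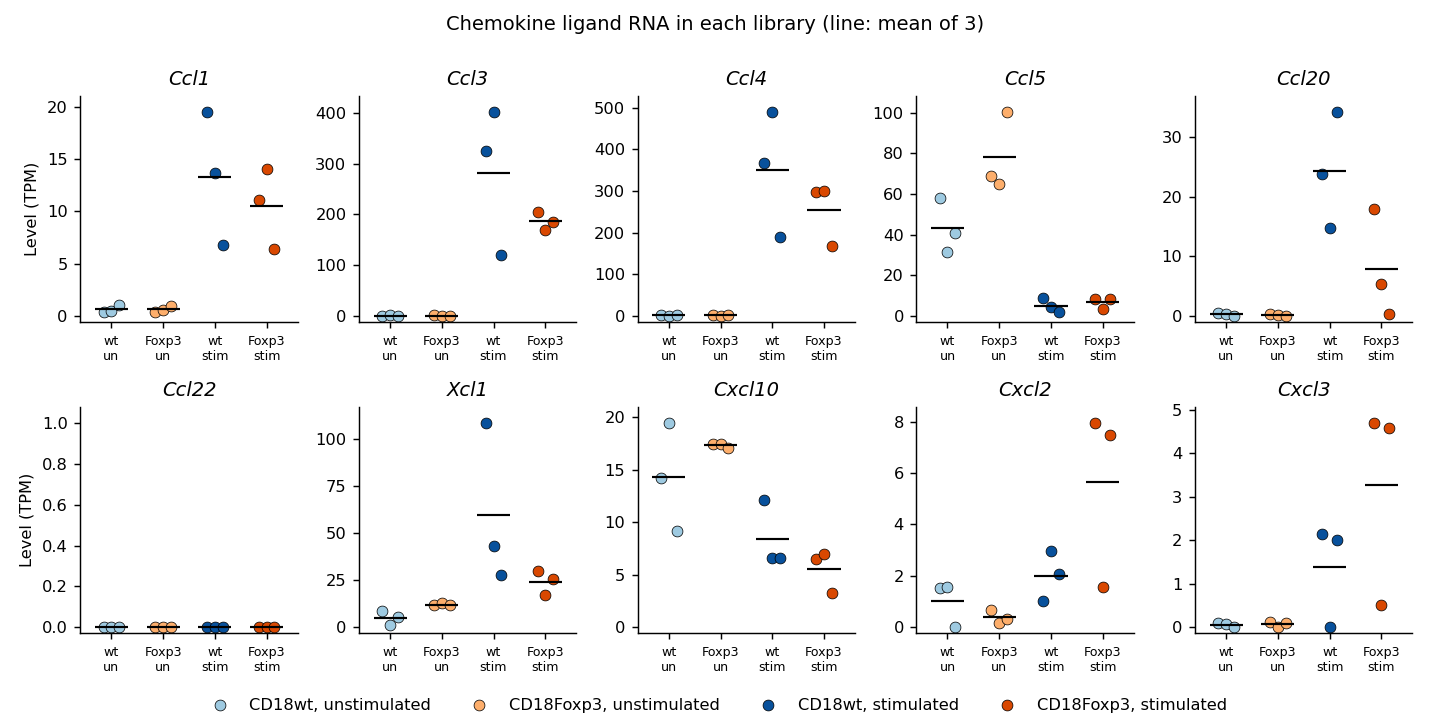
TPM of each ligand in each library. Each panel is a gene, with its own linear vertical axis, each point a library, and each line the mean of 3 libraries; un is unstimulated and stim is stimulated, wt is CD18wt and Foxp3 is CD18Foxp3. Ccl1, Ccl3, Ccl4 and Ccl20 are near 0 in unstimulated groups, and Ccl5 and Cxcl10 are lower in stimulated groups.

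Ccl3 (ENSMUSG00000000982, chr11:83647844-83649355, minus strand) and Ccl4 (ENSMUSG00000018930, chr11:83662584-83664683, plus strand) are neighbours, 13229 bases apart on GRCm38, and encode the macrophage inflammatory proteins 1α and 1β. Ccl3 had 3, 5 and 0 exon reads in the unstimulated CD18wt libraries and 958, 1766 and 478 in the stimulated ones. In CD18Foxp3 Treg it had 11, 0 and 3 reads and, after stimulation, 993, 721 and 728. The stimulated levels of Ccl3 were 325, 402 and 121 TPM in CD18wt and 205, 169 and 186 TPM in CD18Foxp3 libraries, so that the CD18Foxp3 values lay inside the range of the CD18wt values. The log2 fold change of Ccl3 on stimulation was 8.45 (SE 0.86, edgeR adjusted p = 0.000472) in CD18wt Treg and 7.23 (SE 0.46, edgeR adjusted p = 4.13e-06) in CD18Foxp3 Treg. Both rest on few unstimulated reads: without CD18Foxp3 unstimulated replicate 1, which held 11 of the 14 reads, the latter was 8.70, and without CD18wt unstimulated replicate 2 the former was 9.08.

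Ccl4 had 11, 2 and 5 reads in unstimulated and 936, 1854 and 647 reads in stimulated CD18wt libraries. In CD18Foxp3 libraries it had 10, 0 and 10 reads and then 1244, 1096 and 569. No stimulated library of Ccl4 came near an unstimulated one, while the genotypes overlapped in both cultures. The log2 fold change of Ccl4 was 7.38 (SE 0.65, edgeR adjusted p = 0.000125) in CD18wt and 6.95 (SE 0.50, edgeR adjusted p = 6.93e-06) in CD18Foxp3 Treg. Without CD18wt unstimulated replicate 1 the former was 8.03. Ccl4 also had the most intron reads of the ligands, 29, 28 and 15 in stimulated CD18wt and 25, 40 and 30 in stimulated CD18Foxp3 libraries, and none in the 6 unstimulated libraries. The level of Ccl4 relative to Ccl3 in stimulated libraries ranged from 1.13 to 1.57 in CD18wt and from 0.907 to 1.76 in CD18Foxp3 Treg. Of 12636 genes, the cytokine gene Il2 was nearest to Ccl4 in its pattern over the 12 libraries, with a root mean square difference of 0.77 in log2 CPM (reads per depth of library) after each gene was centred on its mean. Ccl3 came next, at 0.84, and Ccl4 was the nearest gene to Ccl3.

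Ccl1 (ENSMUSG00000020702, chr11:82176657-82305690, minus strand) encodes the ligand of Ccr8. Its gene model spans 129034 bases and holds 3 transcripts. It had 6, 8 and 10 reads in unstimulated CD18wt, 6, 8 and 14 in unstimulated CD18Foxp3, 178, 186 and 83 in stimulated CD18wt, and 167, 185 and 78 in stimulated CD18Foxp3 libraries. The genotypes overlapped in both cultures and the cultures in neither genotype. Stimulation raised Ccl1 by a log2 fold change of 4.02 (SE 0.52, edgeR adjusted p = 4.00e-05) in CD18wt and 3.70 (SE 0.44, edgeR adjusted p = 0.000105) in CD18Foxp3 Treg. The genes nearest to Ccl1 in pattern were Echdc2 (0.42) and Fancd2 (0.49 on the same log2 scale), the latter a gene of DNA crosslink repair.

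Xcl1 (ENSMUSG00000026573, chr1:164931644-164935527, minus strand) encodes lymphotactin. Its levels were 8.74, 1.42 and 5.18 TPM in unstimulated CD18wt and 11.8, 12.6 and 11.7 TPM in unstimulated CD18Foxp3 libraries. After stimulation they were 108, 43.0 and 27.8 TPM in CD18wt and 29.9, 17.2 and 25.4 TPM in CD18Foxp3 libraries. The CD18Foxp3 libraries were thus the higher ones without stimulation and overlapped the CD18wt libraries, at the lower end, with it. Xcl1 rose in CD18wt Treg (log2 fold change 3.13, SE 0.67, edgeR adjusted p = 0.00332). Its log2 fold change in CD18Foxp3 Treg was 0.65 (SE 0.32, 95% interval -0.07 to 1.37, edgeR adjusted p = 0.111), although the libraries of the 2 cultures did not overlap. The difference between these responses was -2.49 on the log2 scale (SE 0.76, 95% interval -4.11 to -0.87), with an edgeR adjusted p of 0.987 over all genes. With a library left out this difference ranged from -3.20 (without unstimulated CD18wt replicate 1) to -1.80 (without stimulated CD18wt replicate 1). Stimulated CD18wt replicate 1 stood apart for Xcl1: without it the rise in CD18wt Treg was 2.43 and no longer past the threshold (edgeR adjusted p = 0.0110), and without unstimulated CD18wt replicate 3 the edgeR adjusted p was 0.0243. Without unstimulated CD18wt replicate 1 the rise was 3.83. On the TPM scale (limma) the CD18Foxp3 change was past the threshold, at 0.92 with an adjusted p of 0.00431, and the CD18wt change was not (adjusted p = 0.0110). Of the reads of Xcl1, 89.3% were placed uniquely. Gm20743 overlaps Xcl1 on the other strand, with 0 to 7 reads per library, and without strand its reads cannot be told apart from those of Xcl1. Nearest to Xcl1 in pattern was Cd24a (0.51).

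Ccl20 (ENSMUSG00000026166, chr1:83116766-83119167, plus strand) encodes the ligand of Ccr6. It had 4, 3 and 0 reads in unstimulated CD18wt and 131, 120 and 251 reads in stimulated CD18wt libraries, at 23.9, 14.7 and 34.3 TPM. It rose by a log2 fold change of 5.95 (SE 0.56, edgeR adjusted p = 2.93e-06). In CD18Foxp3 libraries Ccl20 had 3, 2 and 0 reads without and 162, 43 and 3 reads with stimulation, the latter at 17.997, 5.44 and 0.412 TPM. Stimulated CD18Foxp3 replicate 3 thus stayed near the unstimulated libraries for Ccl20, but not for Ccl3 or Ccl4. With reads above the minimum in 2 CD18Foxp3 libraries only, the stimulation of Ccl20 was not tested in that genotype.

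Ccl5 (ENSMUSG00000035042, chr11:83525778-83530518, minus strand), or RANTES, lies 117326 bases from Ccl3 and went the other way. Unstimulated levels of Ccl5 were 58.1, 31.7 and 40.8 TPM in CD18wt and 68.8, 64.9 and 100 TPM in CD18Foxp3 libraries. Stimulated levels were 8.65, 4.54 and 1.82 TPM in CD18wt and 8.22, 3.37 and 8.54 TPM in CD18Foxp3 libraries. Cultures did not overlap in either genotype. Ccl5 fell, with log2 fold changes of -3.55 (SE 0.46, edgeR adjusted p = 6.06e-05) in CD18wt and -3.89 (SE 0.33, edgeR adjusted p = 1.73e-05) in CD18Foxp3 Treg. Some of the 10 markers of cytotoxic lymphocytes, another source of Ccl5, fell with it. In CD18wt Treg 5 were tested and 3 fell (Cd8b1, Klrb1c and Prf1), against 14.9% of all genes. In CD18Foxp3 Treg 6 were tested and 4 fell (Gzma also), against 17.6% of all genes. Nkg7 and Eomes did not pass the threshold in either genotype. Log2 fold changes of Nkg7 were 0.42 in CD18wt and -0.03 in CD18Foxp3 Treg, and those of Eomes -1.28 and -1.05. Every stimulated CD18wt library of Nkg7 lay above every unstimulated one. Prf1, the gene of perforin, had a log2 fold change of -3.27 in CD18wt and -3.33 in CD18Foxp3 Treg. The summed level of the list was 87.2 to 113 TPM before and 95.2 to 149 TPM after stimulation in CD18wt Treg, and 118 to 164 TPM before and 116 to 137 TPM after it in CD18Foxp3 Treg. Their part in the fall of Ccl5 was not tested, and in bulk RNA fewer cells with a transcript and less of it per cell cannot be told apart. Nearest to Ccl5 in pattern were S100a4 (0.50), a calcium-binding protein of effector T cells, and Ifit1bl1 (0.50).

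Cxcl10 (ENSMUSG00000034855, chr5:92346638-92348889, minus strand) encodes an interferon-inducible ligand of Cxcr3. Its unstimulated levels were 14.2, 19.4 and 9.18 TPM in CD18wt and 17.5, 17.5 and 17.1 TPM in CD18Foxp3 libraries. Its stimulated levels were 12.1, 6.58 and 6.63 TPM in CD18wt and 6.52, 6.95 and 3.29 TPM in CD18Foxp3 libraries. In CD18Foxp3 Treg every stimulated library was lower than every unstimulated one, and in CD18wt Treg the cultures overlapped. Cxcl10 fell, with log2 fold changes of -1.17 (SE 0.32, edgeR adjusted p = 0.00818) in CD18wt and -1.99 (SE 0.27, edgeR adjusted p = 0.000240) in CD18Foxp3 Treg. The call in CD18wt Treg was lost on the TPM scale (-0.69, limma adjusted p = 0.0775) and without unstimulated replicate 1 or 2 or stimulated replicate 2 or 3, with adjusted p-values of 0.0215, 0.0604, 0.0292 and 0.0280 (edgeR). With a library left out the log2 fold change ranged from -1.49 to -0.91, and with a replicate block it was -1.16 (edgeR adjusted p = 0.0128). Cxcl10 lies inside Art3, a gene on the other strand, and the counting was not stated to use strand, so that reads of the genes cannot be told apart where they overlap. Art3 had 59 to 161 exon reads in unstimulated and 8 to 26 in stimulated libraries, and Cxcl10 84 to 295 and 38 to 105. Of 9 genes of a list of Ifng, which encodes interferon γ, and its targets, 2 rose (Gbp2 and Socs1) and 0 fell in CD18wt Treg. In CD18Foxp3 Treg 2 of them rose (Ifng and Socs1) and 1 fell. Among all genes tested, 18.7% rose and 14.9% fell in CD18wt Treg, and 20.9% rose and 17.6% fell in CD18Foxp3 Treg. Median log2 fold changes of the list were 0.34 and -0.08. Nearest to Cxcl10 in pattern were Mrgpre and Bcl2l11 (both 0.26), the latter encoding the proapoptotic protein Bim.

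Cxcl2 (ENSMUSG00000058427, chr5:90903871-90905938, plus strand) and Cxcl3 (ENSMUSG00000029379, chr5:90786103-90789600, plus strand) lie 114271 bases apart. They share sequence, since 117 of the 2177 words of 59 bases in the transcripts of Cxcl2 also occur in Cxcl3, whose own 129 shared words are in part those of 4 other genes, and 95.1% and 95.2% of their reads were placed uniquely. Both genes stayed low, and Cxcl2 had 20, 22 and 0 reads in unstimulated and 8, 35 and 22 in stimulated CD18wt libraries. In CD18Foxp3 libraries Cxcl2 had 10, 2 and 4 reads without and 104, 18 and 79 with stimulation. In CD18wt Treg the cultures overlapped, with a log2 fold change of 0.56 (SE 0.85, 95% interval -1.28 to 2.40, edgeR adjusted p = 0.614). In CD18Foxp3 Treg they did not overlap, and Cxcl2 rose by a log2 fold change of 3.45 (SE 0.74, edgeR adjusted p = 0.00325). Without unstimulated CD18Foxp3 replicate 2 or 3 the rise was 3.13 or 3.30 with edgeR adjusted p-values of 0.0157 and 0.0168, and the call was lost, and without replicate 1 it was 4.16. The responses of the genotypes differed by 2.90 (SE 1.21, 95% interval 0.32 to 5.47), with an edgeR adjusted p of 0.987. With a library left out this difference ranged from 2.52 to 3.596, the latter without unstimulated CD18Foxp3 replicate 1, and it was 1.45 in limma on log2(TPM + 1). Cxcl3 had 0 to 3 reads without stimulation in any library, and 29, 0 and 36 in stimulated CD18wt and 104, 10 and 82 in stimulated CD18Foxp3 libraries. The lowest library of both genes among the stimulated CD18Foxp3 ones was replicate 2, at 1.57 TPM of Cxcl2 and 0.514 TPM of Cxcl3, while replicates 1 and 3 were at 7.94 and 7.46 TPM of Cxcl2. Too few libraries held enough reads of Cxcl3 for a test of stimulation in either genotype.

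Ccl22 (ENSMUSG00000031779, chr8:94745590-94751699, plus strand), a ligand of Ccr4 best known from dendritic cells, had no exon read in any of the 12 libraries. A count of 0 allows up to 3 reads, which is 0.181 to 0.335 TPM in these libraries, counting error only. A single intron read was seen, in stimulated CD18wt replicate 1. The other ligands read over introns as well had those reads after stimulation, apart from 1 read of Ccl5.

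**Figure D4:**
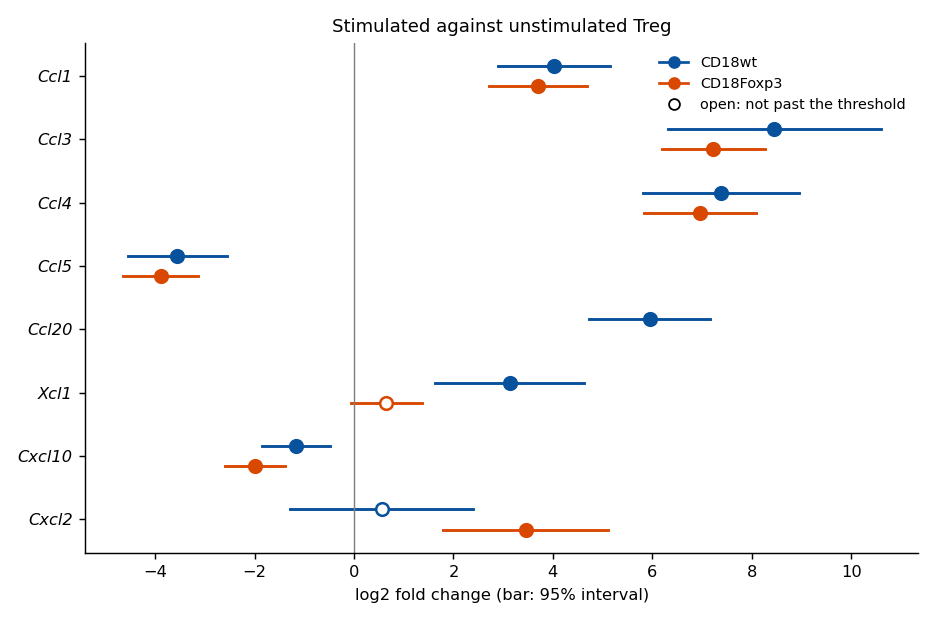
Log2 fold change of each tested ligand on stimulation (horizontal axis), in CD18wt (blue) and CD18Foxp3 Treg (orange), with 95% intervals as bars. Filled points passed the threshold. Ccl1, Ccl3 and Ccl4 lie at 3.70 to 8.45 and Ccl5 at -3.89 to -3.55 in both genotypes, and the open points are Xcl1 in CD18Foxp3 Treg and Cxcl2 in CD18wt Treg.

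The genotype comparison asked whether Treg without CD18 express other levels of these ligands. In unstimulated Treg 3 ligands had enough reads to be tested, and 0 of them passed the threshold, as did 0.135% of the 11829 genes tested, 16 genes. Ccl5 had the smallest p, with a log2 fold change of 0.81 (SE 0.23, 95% interval 0.30 to 1.32), and an edgeR adjusted p of 0.230. The fold was 1.76, and all 3 CD18Foxp3 libraries lay above all 3 CD18wt libraries. Over the other settings its adjusted p ranged from 4.30e-05 to 0.913, and without a filter on low counts Ccl5 was called. Gzma, a granzyme gene among the markers of cytotoxic lymphocytes, was at 0.313, 0 and 1.22 TPM in CD18wt and 4.04, 3.28 and 8.31 TPM in CD18Foxp3 libraries (log2 fold change 3.48, edgeR adjusted p = 0.142). Of the other tested markers of that list, Nkg7 was at 0.45, Prf1 at 0.45 and Cd8b1 at 0.11 on the log2 scale, and Eomes at -0.40 and Klrb1c at -1.01, and none of the 6 passed the threshold. The summed level of the list, 87.2 to 113 TPM in CD18wt and 118 to 164 TPM in CD18Foxp3 libraries, did not overlap between genotypes. Nkg7, the largest part of this sum, did overlap, at 51.1 to 64.2 TPM in CD18wt and 62.6 to 105 TPM in CD18Foxp3 libraries. Between cultures, by the values given above, the sum overlapped in both genotypes while Ccl5 fell. The part of these markers in the level of Ccl5 was not tested.

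Xcl1 was also higher in all 3 unstimulated CD18Foxp3 libraries, with a log2 fold change of 1.21 (SE 0.57, 95% interval -0.04 to 2.46, edgeR adjusted p = 0.541). Without CD18wt unstimulated replicate 2 it was 0.73, and without replicate 1 of that group 1.89. Cxcl10 overlapped between genotypes (log2 fold change 0.25, 95% interval -0.22 to 0.72, edgeR adjusted p = 0.781). Libraries of the genotypes did not overlap in 2 of these 3 ligands, against 15.6% of all genes. The other 7 ligands, at 0 to 2.63 TPM per library, held enough reads in too few libraries, and a difference between genotypes was not tested.

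In stimulated Treg 9 ligands were tested and 0 passed the threshold, as did 0% of the 11930 genes (0 genes by edgeR, 22 by DESeq2, and 583 at an unadjusted p under 0.05). The deleted gene Itgb2 did not pass either, at a log2 fold change of -0.94 (SE 0.17, edgeR adjusted p = 0.216). None of the 9 ligands was without overlap between genotypes, against 9.43% of all genes. Xcl1 had the smallest p, with a log2 fold change of -1.27 (SE 0.46, 95% interval -2.28 to -0.26, edgeR adjusted p = 0.913). It was -0.57 without stimulated CD18wt replicate 1. Cxcl2 was next, at 1.47 (SE 0.63, 95% interval 0.10 to 2.85, edgeR adjusted p = 0.973). The estimate of Cxcl3 was 1.34 with an interval of -1.10 to 3.77, and that of Ccl20 was -1.54 with an interval of -3.64 to 0.56. With a library left out, Ccl20 ranged from -3.02 (without stimulated CD18Foxp3 replicate 1) to -0.99 (without replicate 3 of that group), and it was -2.63 in limma on log2(TPM + 0.1). Cxcl3 ranged from 0.74 (without stimulated CD18wt replicate 2) to 1.85. For Ccl3 the interval was -1.53 to 0.30, for Ccl4 -1.30 to 0.36, for Ccl1 -1.20 to 0.53, for Cxcl10 -1.39 to 0.25 and for Ccl5 -0.90 to 1.81. The narrowest of these still hold a change of 1.5-fold in 1 direction or both, so equal levels are not shown.

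**Figure D5:**
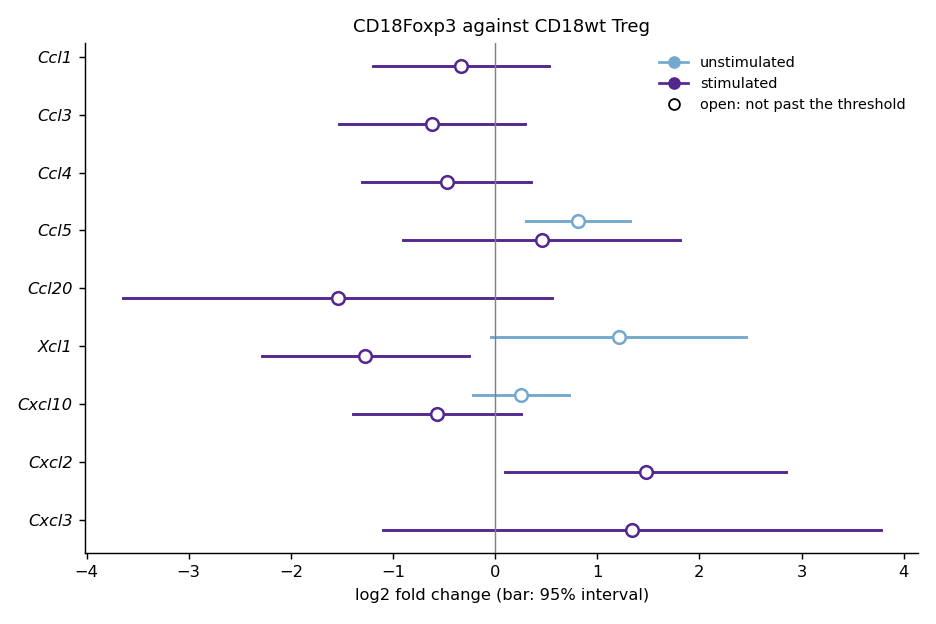
Log2 fold change of CD18Foxp3 against CD18wt Treg (horizontal axis) for each tested ligand, in unstimulated (light blue) and stimulated cultures (purple), with 95% intervals as bars. All points are open, since 0 of 3 and 0 of 9 passed the threshold. Xcl1 is at 1.21 without and -1.27 with stimulation.

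In the test of whether the response to stimulation depended on genotype, 0 of 9 ligands and 0% of 12636 genes passed the threshold (0 genes by edgeR, 1 by DESeq2, 485 at an unadjusted p under 0.05). Beside Xcl1 and Cxcl2, given above, no ligand had an unadjusted p under 0.05, and Cxcl10 had a difference of -0.83 (SE 0.43, 95% interval -1.74 to 0.09). Xcl1 passed the threshold without a filter on low counts (-2.50, edgeR adjusted p = 0.00832). The comparisons of genotype and of stimulation share libraries, so that unstimulated CD18wt replicate 2, the lowest for Xcl1, enters both its rise on stimulation and its higher level in unstimulated CD18Foxp3 Treg.

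Of 30 other chemokine ligand genes in the tables, most had few reads. Their summed level was 1.71 to 6.57 TPM per library, against 56.4 to 977 TPM for the 10 ligands, and 7 had no exon read in any library. Averages of 1 TPM or more were reached by Ccl9, Ccl25 and Ccl27a. Of the reads of Ccl27a, only 31.0% to 44.9% in a group were placed uniquely. Ccl25 rose on stimulation in CD18Foxp3 Treg (log2 fold change 1.16, SE 0.28, edgeR adjusted p = 0.00643) and was at 0.63 (SE 0.40, edgeR adjusted p = 0.207) in CD18wt Treg. Summed over a group, stimulated libraries held more intron than exon reads of Ccl25, 365 beside 294 in CD18Foxp3 and 287 beside 199 in CD18wt Treg. Unstimulated libraries held 118 intron beside 114 exon reads in CD18Foxp3 and 106 beside 116 in CD18wt Treg. Of this list only 2 genes, Ccl25 and Ccl27a, had enough reads to be tested on stimulation in either genotype, and at most 3 were tested in any comparison. Among those tested, Ccl25 alone passed the threshold, while 20.9% of all genes tested rose in CD18Foxp3 Treg. Ccl9, a ligand of Ccr1, was not tested on stimulation. It had no read in the 6 unstimulated libraries, 11, 47 and 5 in stimulated CD18wt and 5, 22 and 9 in stimulated CD18Foxp3 libraries.

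The receptors of these ligands were measured in the same cells. Of 9 receptor genes, 6 were tested on stimulation in CD18wt Treg, where Ccr4 and Ccr8 rose and Cxcr3 fell. In CD18Foxp3 Treg 8 were tested, and Ccr1, Ccr4 and Ccr8 were among the 4 that rose, and Cxcr3 fell. The shares of all genes tested were 18.7% higher and 14.9% lower in CD18wt Treg, and 20.9% higher and 17.6% lower in CD18Foxp3 Treg. Ccr8, the receptor of Ccl1, was at 41.5 to 90.9 TPM in unstimulated CD18wt and 249 to 259 TPM in stimulated CD18wt libraries, and at 73.2 to 93.4 and 363 to 576 TPM in CD18Foxp3 libraries. Its log2 fold change was 1.46 in CD18wt (edgeR adjusted p = 0.000128) and 2.14 in CD18Foxp3 Treg (edgeR adjusted p = 1.88e-05). Cxcr3, the receptor of Cxcl10, fell, at -1.29 in CD18wt (edgeR adjusted p = 3.88e-05) and -2.03 in CD18Foxp3 Treg (edgeR adjusted p = 3.25e-06), and so moved in the direction of its ligand. Ccr6, the receptor of Ccl20, was at 9.98 to 28.5 TPM and did not pass the threshold in either genotype. Xcr1, the receptor of Xcl1, was low. In CD18Foxp3 libraries it was at 0.0629 to 0.273 TPM without stimulation, 13 reads in all, and at 0.425 to 2.06 TPM with it. These cultures did not overlap (log2 fold change 2.57, SE 0.73, edgeR adjusted p = 0.0143). The change was called with a replicate block (2.50, edgeR adjusted p = 0.00672). In CD18wt libraries Xcr1 was at 0.390 to 0.498 TPM without and 0.523 to 1.10 TPM with stimulation (log2 fold change 0.59, SE 0.63, edgeR adjusted p = 0.468). Every unstimulated CD18Foxp3 library thus lay below every unstimulated CD18wt library. Cxcr2 had 0 to 5 reads per library. Between genotypes 0 of 7 tested receptors passed the threshold in either culture, as did 0.135% of all genes in unstimulated and 0% in stimulated Treg. Libraries of the genotypes did not overlap in 3 of the 7 receptors in each culture, against 15.6% of all genes without and 9.43% with stimulation. The smallest p in stimulated Treg was that of Ccr8, with all CD18Foxp3 libraries above all CD18wt libraries (log2 fold change 0.92, SE 0.19, edgeR adjusted p = 0.339).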

How the data were processed

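Poly(A) RNA of sorted splenic Treg was sequenced in 59-base single reads in 12 libraries, 3 per genotype and culture, grouped by the sample labels. The authors mapped reads to GRCm38 in CLC Genomics Workbench 20.0 with default settings and deposited, per gene and library, read counts over exons and introns, without normalization, and TPM, which scale counts by exon length and to 1 sum per library. RPKM were not used. The library kit, amplified by 15 PCR cycles, is not stated to mark strand. Exon counts were tested with edgeR 4.0.16 in R 4.3.3: genes kept by filterByExpr (minimum count 10), TMM normalization, robust quasi-likelihood fit on the 6 libraries compared (12 for the interaction), Benjamini-Hochberg adjustment over all genes tested, and the thresholds of the study's methods (fold of at least 1.5, adjusted p of at most 0.01). The tests were also run on simulated counts, and since that outcome is not given here, nothing is drawn from it. Standard errors are the log2 fold change over the square root of F. Libraries held 10665174 to 19005482 exon reads, and replicates differed by more than counting error. Floors of 3 reads cover counting error only.

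All 10 ligands are described. Of the other chemokine ligands and the receptors, genes were named that were called in any comparison or averaged at least 1 TPM in any group, beside counts over the list, and of the marker and interferon lists genes that moved with a result. Ccr6, Xcr1, Cxcr2 and Ncr1 are named for their role. Some genes of these lists are not reported here by name. Likeness is the root mean square difference of centred log2 CPM (prior count 2) over 12 libraries, a description without a test. The members and lists were chosen with earlier results of these data known. Alternatives were DESeq2 1.42.0, RLE normalization, a replicate block, no filter, reads placed at a single locus, leaving out each library in turn, a fit of all 12 libraries, a threshold of 0.05, and limma 3.58.1 after adding 1 or 0.1 to TPM and taking log2. TPM over the principal transcript was added after seeing the data. Gene models and shared words come from the GENCODE annotation of GRCm38, promoters from RefSeq (GRCm38.p6). Python 3.11.15, pandas 2.3.3 and matplotlib 3.10.9 were used.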

Additional observations from a re-analysis of the deposited data

How the results depend on the processing

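Of 549 values of single ligands under other settings, 526 kept their direction and side of the threshold, 13 lost a call, 4 gained one and 6 turned sign. Calls in CD18wt stimulation were lost for Xcl1 and Cxcl10 as given above, and Cxcl2 in CD18Foxp3 stimulation without either of 2 libraries. The values that turned sign were not called in any setting. With a library left out, Ccl1 between stimulated genotypes ranged from -0.67 to 0.00038 (without CD18wt stimulated replicate 1), and in the interaction Ccl1 ranged from -0.81 to 0.060 (without CD18Foxp3 unstimulated replicate 3), Ccl3 from -1.88 to 0.24 (without CD18Foxp3 unstimulated replicate 1), Ccl4 from -1.10 to 0.11 (without CD18wt unstimulated replicate 2) and Ccl5 from -0.77 to 0.21 (without CD18wt stimulated replicate 1), while Ccl4 was at 0.40 in limma on log2(TPM + 0.1). The cause was not tested.

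Genes called between unstimulated genotypes, 16, became 86 with DESeq2, 134 without a filter, 1 and 5 with limma on log2(TPM + 1) and log2(TPM + 0.1), 0 with all 12 libraries in 1 fit and 33 at an adjusted p of 0.05, and 0 to 44 with a library left out, the highest without CD18wt unstimulated replicate 3. Between stimulated genotypes 0 genes became 22 with DESeq2, 61 without a filter, 1 on log2(TPM + 0.1) and 0 to 2 with a library left out. In the interaction 0 became 1 with DESeq2, 31 without a filter and 1 with either limma setting. Ligands called went from 0 to 1 without a filter between unstimulated genotypes (Ccl5) and in the interaction (Xcl1). Replicate numbers are shared by all groups, but same-numbered libraries deviated together with correlations of only -0.13 to 0.15, and the labels do not say that a number marks an animal. A replicate block called 41 genes between unstimulated and 1 between stimulated genotypes and lost Cxcl10 in CD18wt stimulation (-1.16, adjusted p = 0.0128, edgeR), with no other ligand call changed. In CD18Foxp3 stimulation every library correlated best with its own number, in the other comparisons not.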
